A study of Mus musculus with 2 samples.

Results

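The promoters of long intergenic noncoding RNA (lincRNA) genes were examined in liver DNA of Uhrf1 YP187/188AA knock-in (KI) and wild-type (WT) mice. A lincRNA promoter was taken as the 1000 bp on each side of the 5' end of an autosomal gene of the GENCODE class lincRNA, and CpGs within 1000 bp of the start of any protein-coding transcript were left out. A CpG entered with 5 or more reads in each library, and a promoter needed 3 such CpGs. Of 1232 autosomal lincRNA genes, 424 had any such CpG and 389 had a measured promoter, out of 16177 autosomal promoters of all gene types but pseudogenes. Promoters of the other gene types kept their CpGs near protein-coding starts, so the windows compared below are not alike. The KI mice were homozygous for a change of tyrosine 187 and proline 188 of Uhrf1 to alanine, which was introduced through 129/SV-derived R1 embryonic stem cells with a Neo gene between FRT sites in an intron of Uhrf1. The labels give the strain of both genotypes as C57BL/6 where the methods print C57BL/C, and all mice were males of 3 months with no further treatment. DNA of 3 KI mice was pooled into 1 library and DNA of their 3 WT littermates into another, so no spread between animals can be given. Every test below compares the reads of 2 libraries, not the genotypes. One label calls the KI mice knock out, their title has KI, and they were taken as KI.

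UHRF1 binds hemi-methylated DNA at replication forks through its SRA domain and recruits the maintenance methyltransferase DNMT1, and its tandem Tudor domain, which carries the KI mutation, binds histone H3 methylated at lysine 9. A lincRNA is a long transcript without a protein product whose gene is annotated apart from coding genes. Some of these RNAs act on chromatin in cis or in trans, some host microRNAs or small nucleolar RNAs in their introns, and a few are the noncoding partners of imprinted genes, where 1 parental allele is methylated. Promoters rich in CpG are as a rule free of methylation in adult tissue whether or not they are active, while CpG-poor promoters are often methylated.

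Reduced representation bisulfite sequencing (RRBS) cuts DNA with MspI at CCGG and reads a cytosine that bisulfite did not convert as methylated, so each value is the percentage of methylated reads at 1 cytosine, with the cytosines of both strands counted separately. The KI library listed 6452685 CpGs with a summed coverage of 173109895 and the WT library 7231934 CpGs with a summed coverage of 192144002, and the 2654195 CpGs shared at 5 reads had a median of 37 reads in each. Over the shared CpGs of the autosomes the mean methylation level was 42.3% in KI and 45.2% in WT. DNA libraries hold no expression marker of a cell type. As a check of the tissue, the promoters of the hepatocyte genes Apob, F2, Fgb and Hnf4a were at 26.02% to 45.2% in KI and 33.9% to 56.7% in WT. Of the lymphocyte genes, Cd79b was at 71.7% in KI and 65.0% in WT, and Cd3e at 48.5% in KI and 65.3% in WT. The check is weak, since it rests on few CpGs and in KI Cd3e was close to Hnf4a at 45.2%. Intervals are at 95% and cover counting error only, and since PCR copies were not marked and 1 read can span several CpGs, they are too narrow and the p-values too small.

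The label intergenic held for only part of these genes. The 5' ends of 177 of the 389 lay inside another annotated gene, 162 of them inside a protein-coding gene, and 156 of those were on the strand opposite to it. The median distance to the nearest protein-coding start was 10467 bp, and 56 lay within 1000 bp of one, so that only the part of their window farther than that from it was measured. In RefSeq, 209 members matched a long noncoding RNA and 2 an antisense RNA, 11 matched a protein-coding gene and 158 had no match. They are called lincRNA promoters here by the GENCODE class alone.

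The stretches on which the largest losses rest, with a repeated one, are shown in mm9, 5′ to 3′ on the strand of the gene, with the CG of every shared CpG in capitals. D130017N08Rik (chr5:144519103-144519235, plus strand) and Gm15609 (chr15:89354566-89354687, minus strand) had the largest losses. Nespas (chr2:174120988-174121136, minus strand) is imprinted, and Gm16766 (chr5:38711983-38712152, minus strand) held the most single CpGs called lower. A230004M16Rik (chr11:41523395-41523651, plus strand) is made of repeated sequence.
D130017N08Rik: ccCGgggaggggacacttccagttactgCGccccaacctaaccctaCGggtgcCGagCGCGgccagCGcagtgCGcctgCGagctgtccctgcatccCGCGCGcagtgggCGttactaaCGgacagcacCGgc
Gm15609: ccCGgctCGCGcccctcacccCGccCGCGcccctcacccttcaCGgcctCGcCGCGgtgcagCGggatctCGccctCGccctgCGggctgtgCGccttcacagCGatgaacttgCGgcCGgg
Nespas: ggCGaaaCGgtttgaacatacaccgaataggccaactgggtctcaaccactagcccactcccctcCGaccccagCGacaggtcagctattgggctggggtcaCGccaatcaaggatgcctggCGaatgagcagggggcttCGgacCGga
Gm16766: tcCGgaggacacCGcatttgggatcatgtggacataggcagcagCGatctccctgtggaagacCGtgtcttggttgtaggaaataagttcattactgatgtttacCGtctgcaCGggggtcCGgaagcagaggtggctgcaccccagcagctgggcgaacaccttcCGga
A230004M16Rik: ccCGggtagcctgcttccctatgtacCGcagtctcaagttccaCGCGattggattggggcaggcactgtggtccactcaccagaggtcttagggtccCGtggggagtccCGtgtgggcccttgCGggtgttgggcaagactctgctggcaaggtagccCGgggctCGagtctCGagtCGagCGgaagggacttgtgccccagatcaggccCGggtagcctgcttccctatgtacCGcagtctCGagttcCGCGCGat
The D130017N08Rik stretch starts 91 bp before the 5' end and holds 15 CpGs read on both strands, which makes 30 cytosines. The Gm15609 stretch lies 458 to 579 bp before the 5' end and holds 18 CpGs. In A230004M16Rik, the words of 16 bases around a CpG of the stretch had a median of 4442.5 copies in the genome, against 1 in D130017N08Rik, Gm15609 and Nespas. Over the whole A230004M16Rik window, 44.3% of bases equalled the base 208 bases on, against a median of 26.3% over steps of other lengths. How much of the window repeats at this step was not measured.

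Methylation at lincRNA promoters was slightly lower in KI. The mean over their 10721 CpGs was 15.9% in KI and 16.6% in WT, a change of -0.69 percentage points (interval -0.85 to -0.53), or 4.17% of the WT level. Over protein-coding promoters the mean was 5.04% in KI and 5.36% in WT, a change of -0.32 points (interval -0.33 to -0.30) and 5.90% of the WT level. Promoters of the GENCODE class processed transcript, the other large class of noncoding genes, had 17.6% in KI and 18.6% in WT, a change of -1.04 points. The protein-coding and processed transcript classes kept the CpGs near coding starts, which the lincRNA class left out. All autosomal shared CpGs changed by -2.89 points, or 6.40% of their WT level. Weighting each lincRNA promoter once in place of each CpG gave 25.6% in KI and 26.9% in WT, a change of -1.33 points. The number of shared CpGs ranged from 3 to 223 per promoter with a median of 19, and the median depth per CpG was 39.3 reads in KI and 41.8 in WT.

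Levels differed widely between the promoters. The lower quartile, the median and the upper quartile were 0.80%, 8.41% and 51.1% in KI and 1.28%, 9.66% and 55.1% in WT, while the median of protein-coding promoters was 0.72% in KI and 0.78% in WT. In WT, 196 lincRNA promoters were under 10%, 81 at 10 to 50% and 112 over 50%. The last class made up 28.8% of the lincRNA promoters and 10.9% of the protein-coding ones. No methylated read was found in either library at 20 promoters, where a count of 0 allows a level of up to 0.26% to 12.5% in KI and of 0.23% to 14.3% in WT, depending on the reads. Changes ran from -23.6 to 16.4 points, with a median of -0.30 and quartiles of -2.39 and 0.30, and 235 promoters were lower in KI, 134 higher and 20 equal. The median change over all promoters tested was -0.06 points.

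**Figure D1:**
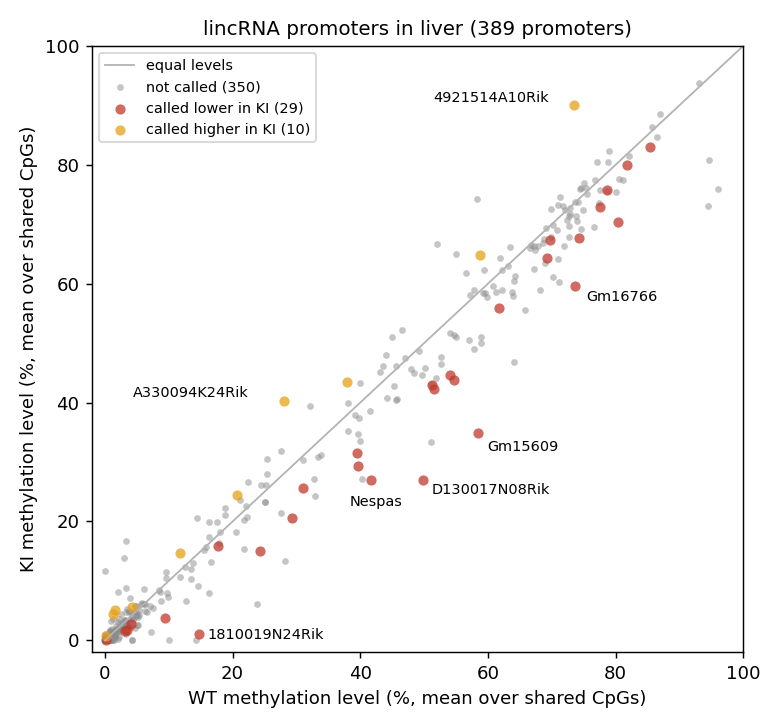
Mean methylation level of each of the 389 lincRNA promoters in KI (vertical axis, %) against WT (horizontal axis, %), with each point 1 promoter and the line at equal levels. Red points are the 29 promoters called lower in KI and yellow points the 10 called higher, and most of the 350 grey points lie close to the line, which has 235 promoters of all kinds below it and 134 above it.

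Of the 389 promoters, 29 (7.46%) were called lower in KI and 10 (2.57%) higher, against 7.23% lower and 1.11% higher among all 16177 promoters. A call needed an adjusted p under 0.05 and the same direction in 2 two-sided tests, Fisher's exact test on the summed reads of the promoter and a Cochran-Mantel-Haenszel test in which every CpG forms a stratum, each adjusted by Benjamini-Hochberg over the 16177 promoters. The share called lower was thus close to that of all promoters. The share called higher was above that of all promoters, and whether the difference is larger than expected was not tested. Among the lower promoters the median change was -6.58 points, 11 changed by under 5 points and 15 were over 50% in WT. They lay on 17 chromosomes. The higher promoters had a median change of 3.65 points, and 6 changed by under 5 points. With a change of at least 10 points required, 7 were lower and 2 higher, against 1.56% and 0.0989% of all promoters. Reads of a promoter were also averaged over the CpGs of each strand. A read then counts about once where the CpGs lie in 1 fragment. It counts less than once where they lie in several, which costs power. On these reads no promoter passed Fisher's exact test after adjustment, against 0.0495% lower and 0.0124% higher of all promoters. By the same test, 9 lower and 1 higher had an unadjusted p under 0.05, against 1.16% lower and 0.0556% higher of all promoters. Averaging over all CpGs of a promoter left 1 lower and 1 higher at an unadjusted p under 0.05, against 0.309% and 0.0247% of all promoters, and again none after adjustment, against 0.00618% lower and 0.00% higher of all promoters.

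The level followed CpG content and location. High-CpG promoters, 169 of the 389, had a median of 1.49% in KI and 1.94% in WT. The 139 of intermediate content had medians of 18.2% in KI and 21.1% in WT, and the 81 of low content 58.6% in KI and 59.8% in WT. High-CpG promoters were 43.4% of the lincRNA class and 70.9% of the protein-coding class. Promoters whose 5' end lay outside other genes had a median of 4.101% in KI and 3.812% in WT (n = 212), those in an intron of another gene 22.9% in KI and 28.8% in WT (n = 108), and those in an exon 27.2% in KI and 32.8% in WT (n = 69). Promoter by promoter, the 212 outside other genes had a median change of -0.25 points, with 126 lower in KI and 74 higher. Of the 29 lower promoters, 18 lay inside a protein-coding gene on the opposite strand, as did 156 of the 389, so that their CpGs are also part of the body of the coding gene. The 211 members that RefSeq has as a long noncoding or antisense RNA were at a median of 4.84% in KI and 4.98% in WT, and the 158 without a match at 32.7% in KI and 39.4% in WT.

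Changes were close to 0 at promoters with little methylation in WT, and most losses were at the others. Under 10% in WT, the median change of the lincRNA promoters was -0.03 points, and 5 of 196 were lower and 4 higher, against 2.30% and 1.10% of all promoters at that level. At 10 to 50%, the median was -1.51 points, and 9 of 81 were lower and 4 higher, against 17% and 2.03%. Over 50%, the median was -2.31 points, and 15 of 112 (13.4%) were lower and 2 higher, against 21.5% and 0.423%. At that level the protein-coding promoters had a median change of -3.70 points with 25.1% lower, and the processed transcripts -2.82 points with 15.7% lower. Summed reads per promoter differed too, with medians of 638 in KI and 620.5 in WT for lincRNA and of 728 in KI and 803 in WT for protein-coding promoters over 50%. The difference between gene classes was not tested, nor was the part of the reads or of the unlike windows in it. The order of the upper classes rests on classing by WT: with classes set by the mean of both libraries, 13 of 89 lincRNA promoters at 10 to 50% (14.6%) were lower with a median change of -1.86 points, and 10 of 102 over 50% (9.80%) with a median of -1.82 points, against 17.9% and 20.6% of the promoters of other gene types.

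By level of the single CpG, the change was largest at 50 to under 70%. With levels taken as the mean of both libraries, the 7970 lincRNA promoter CpGs under 10% changed by -0.06 points (interval -0.21 to 0.09) and the 1049 at 10 to under 50% by -2.53 points (interval -3.32 to -1.74). The 316 CpGs at 50 to under 70% had means of 57.7% in KI and 62.8% in WT, a change of -5.10 points (interval -6.64 to -3.55), against -5.95 points (interval -6.27 to -5.63) at protein-coding promoters and -10.4 points over all autosomal CpGs of that level. At 70% and over, 1386 CpGs had means of 86.8% in KI and 88.7% in WT, a change of -1.92 points (interval -2.41 to -1.43), against -3.03 points (interval -3.16 to -2.90) at protein-coding promoters and -3.92 points over all autosomal CpGs.

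**Figure D2:**
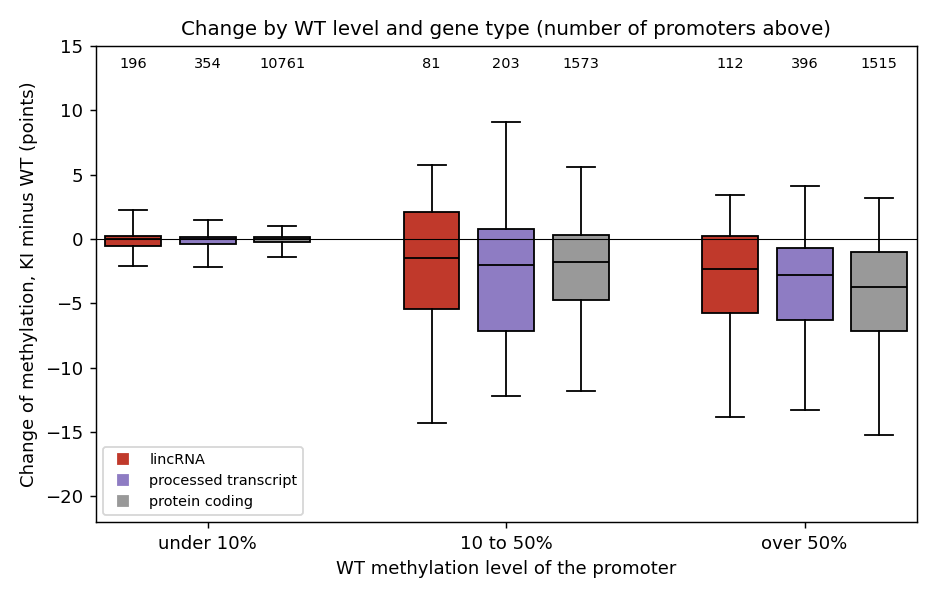
Change of the promoter methylation level, KI minus WT in percentage points (vertical axis), for lincRNA, processed transcript and protein-coding promoters in 3 classes of WT level, with the number of promoters above each box. Boxes span the quartiles with a line at the median, whiskers end at the 5th and the 95th percentile, and the medians of the lincRNA boxes are -0.03, -1.51 and -2.31 points from left to right.

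The loss was spread over the window. Both libraries had their lowest level just after the 5' end, with 11.98% in KI and 12.74% in WT at 0 to 200 bp, and their highest level at 800 to 1000 bp before it, with 37.6% in KI and 39.1% in WT. Of the 10 steps of 200 bp, 9 were lower in KI, by 0.34 to 1.49 points, and the step at 400 to 600 bp changed by 0.19 points with a counting error of 0.26. Protein-coding promoters had their lowest level at 2.84% in KI and 3.02% in WT, in the 200 bp before the 5' end.

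**Figure D3:**
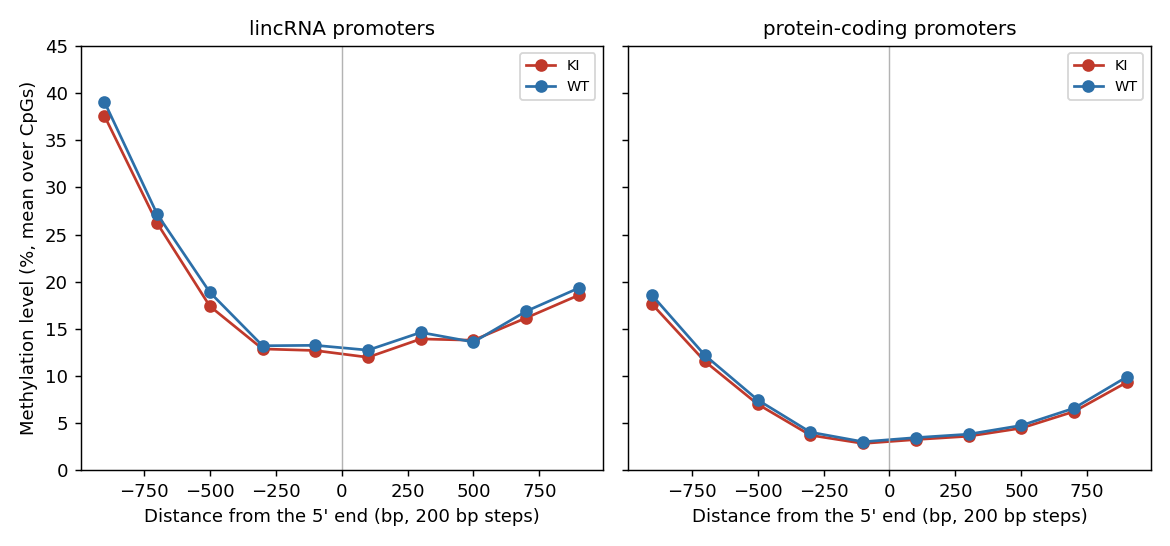
Mean methylation level (vertical axis, %) in steps of 200 bp by distance from the 5' end of the gene (horizontal axis, bp), in KI and in WT, for lincRNA promoters on the left and protein-coding promoters on the right. The KI and WT lines run close together in both panels, and the lincRNA lines reach 37.6% in KI and 39.1% in WT at the upstream edge.

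Gm15609, inside an intron of the synaptic scaffold gene Shank3 on the opposite strand, had the largest loss. It was at 34.9% in KI and 58.5% in WT, a change of -23.6 points (interval -29.6 to -17.6), and 33 of its 36 cytosines were lower in KI. Depth was low, with 10 to 26 reads per cytosine in KI and 7 to 24 in WT, and it was nearly constant along each strand of the short stretch printed above, so that the same reads are likely to count at most of its CpGs. The plus strand of the genome had 34.8% in KI and 44.8% in WT, and the minus strand, with a median of 10 reads in KI and 7 in WT, had 35.0% in KI and 72.2% in WT. Averaging over the CpGs of each strand left 35 reads in KI and 31 in WT, and Fisher's exact test on these gave an unadjusted p of 0.21. The size and rank of this loss change with the processing: it was -10.03 points over 18 cytosines with at least 10 reads in both libraries, -16.2 points with strands summed and -18.4 points, without a call, with 500 bp on each side, while D130017N08Rik was at -22.8 points or beyond under each of these.

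D130017N08Rik was lower at each of its cytosines. This gene lies between coding genes, 26045 bp from the start of the deubiquitinase gene Usp42, and its 30 cytosines span the 5' end itself. The promoter was at 27.0% in KI and 49.8% in WT, a change of -22.8 points (interval -27.1 to -18.4), with 30 of 30 cytosines lower in KI. Cytosines ran from 0.00% to 45.7% with a median of 25.4% in KI and from 3.12% to 73.7% with a median of 51.3% in WT, so that the ranges of the libraries overlapped while every single pair differed in 1 direction. The lowest levels were in the CCGG sites at the ends of the stretch, where the direction rests on few methylated reads. At -88 bp on the minus strand, 0.00% of 33 reads were methylated in KI and 3.12% of 32 in WT. At 38 bp on the plus strand, 0.00% of 36 were methylated in KI and 5.26% of 19 in WT. Without CpGs in CCGG sites, 26 cytosines were left and the change was -24.5 points. Both strands showed the loss, with 37.5% in KI and 57.5% in WT on the plus strand and 16.6% in KI and 42.1% in WT on the minus strand. The adjusted p was 3.4e-22 in the stratified test, which counts each read at each CpG, and Fisher's exact test on strand-averaged reads (68 in KI, 51 in WT) gave an unadjusted p of 0.036.

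Nespas is the antisense transcript of the imprinted Gnas cluster, made from the paternal allele, and its 5' end lies in an intron of Gnas, the gene of the G protein alpha subunit. Its 18 cytosines averaged 26.9% in KI and 41.7% in WT, a change of -14.8 points (interval -25 to -4.54), and 14 of them were lower, 1 higher and 3 equal. Only 7 to 13 reads per cytosine in KI and 5 to 10 in WT stand behind this. The call was lost with at least 10 reads per CpG, without CpGs in CCGG sites and with reads thinned to equal coverage, and the unadjusted p by Fisher's exact test on strand-averaged reads was 0.31.

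Gm16766 starts in an exon of the dopamine receptor gene Drd5 on the opposite strand. It was at 59.5% in KI and 73.6% in WT, a change of -14.1 points (interval -17.5 to -10.7), and 22 of 24 cytosines were lower. It was read more deeply than the promoters above, at up to 136 reads per cytosine in KI and 146 in WT, and the unadjusted p by Fisher's exact test on strand-averaged reads was 0.013. At 5 of its cytosines, between 7 bp before and 87 bp after the 5' end, the single CpG was called lower. At 25 bp on the minus strand, 52.6% of 135 reads were methylated in KI (Wilson interval 44.2 to 60.8) and 83.0% of 141 reads in WT (Wilson interval 75.9 to 88.3).

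The remaining losses of at least 10 points were at 1810019N24Rik, Gm17456 and Gm16834. The promoter of 1810019N24Rik, 4070 bp from the zinc finger gene Zfp324, was nearly unmethylated in KI, at 1.09%, against 14.7% in WT, with 11 of 15 cytosines lower and 4 equal. Its depth was 9 to 19 reads per cytosine in KI and 5 to 15 in WT, and at 10 reads only 4 cytosines were left and the call was lost. Gm17456, in an intron of the potassium channel gene Kcna6, was at 43.8% in KI and 54.8% in WT, with 6 of 6 cytosines lower. Without CpGs in CCGG sites it had too few CpGs left to be measured. Gm16834, with its 5' end outside other genes, was at 29.3% in KI and 39.7% in WT, with 6 of 8 lower, and was not called without CpGs in CCGG sites.

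**Figure D4:**
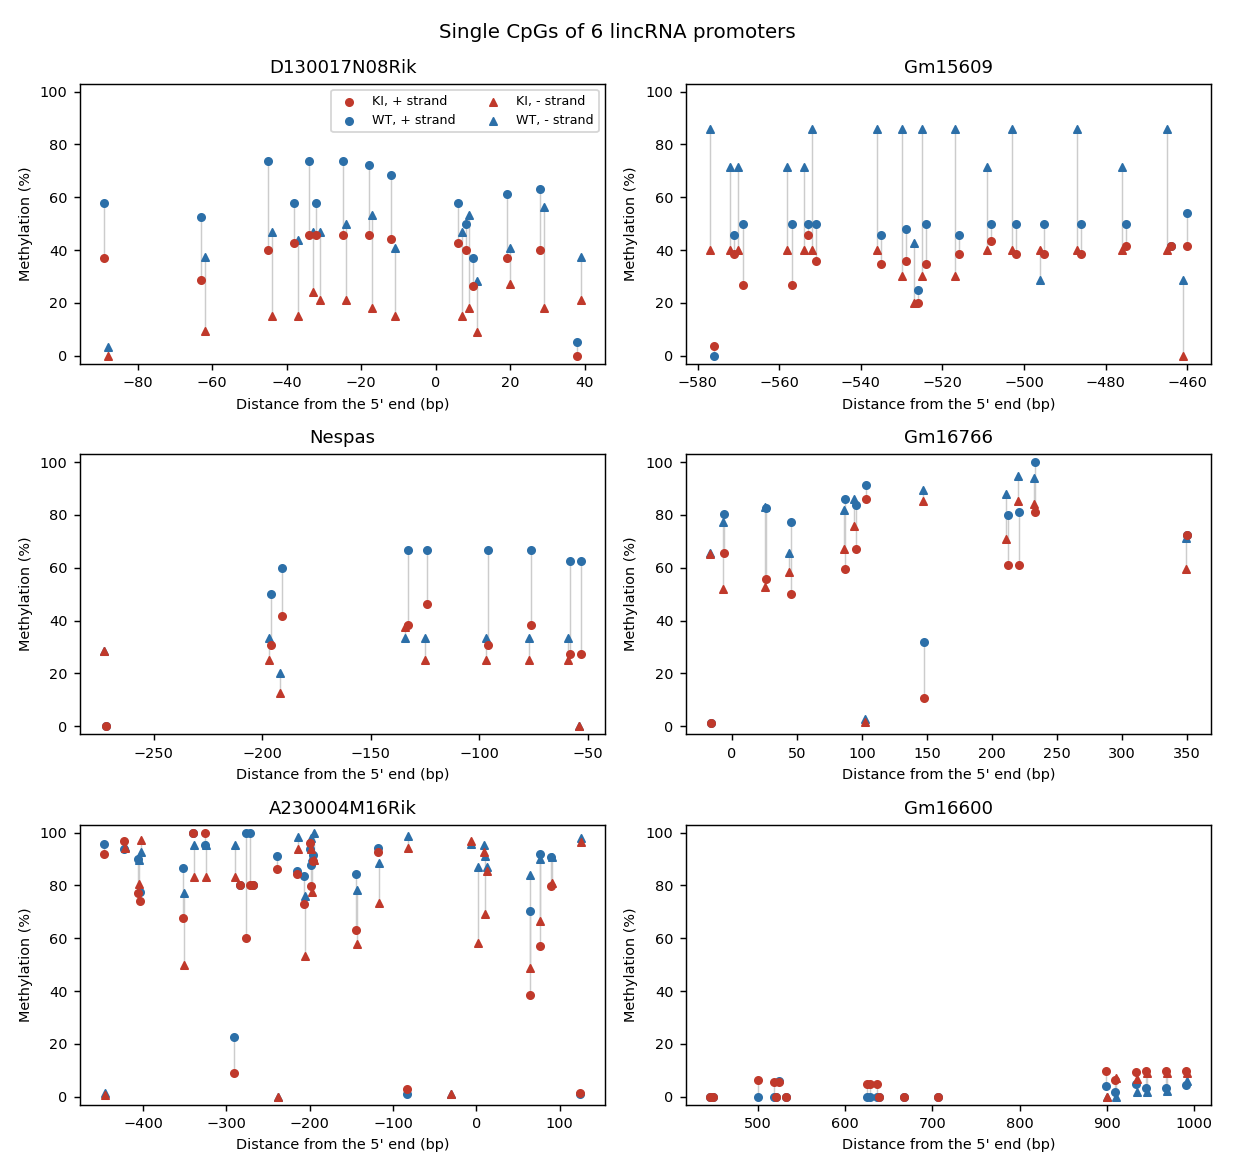
Methylation (vertical axis, %) of each shared cytosine against its distance from the 5' end (horizontal axis, bp) at 6 lincRNA promoters, with KI in red and WT in blue, circles for the plus strand of the genome and triangles for the minus strand, and a grey line joining the 2 libraries at each cytosine. KI lies under WT at 30 of 30 cytosines of D130017N08Rik and at 33 of 36 of Gm15609, and over WT at 16 of 25 of Gm16600.

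Of the other 22 lower promoters, Gm17242 and Gm16206 were named for their reads and the rest after their values were seen. A230004M16Rik, whose CpGs lie in repeated sequence at 96.2%, was at 70.4% in KI and 80.3% in WT, a change of -9.92 points, with 40 of 52 cytosines lower. Gm17287, on chromosome 17 with Uhrf1, was at 44.7% in KI and 54.1% in WT. Gm16986, 5990 bp from a vomeronasal receptor pseudogene, was at 42.4% in KI and 51.5% in WT with 363 strand-averaged reads in KI and 520 in WT, and its unadjusted p by Fisher's exact test on these, 0.0020, was the lowest of the 29. Gm16990, in an intron of Sparcl1, was at 20.6% in KI and 29.3% in WT with an unadjusted p of 0.011 by the same exact test. Among highly methylated promoters, F630040L22Rik in the presynaptic gene Bsn was at 72.9% in KI and 77.6% in WT, and Gm17643 at 83.0% in KI and 85.4% in WT. At the low end, Gm17242 was at 1.49% in KI and 3.11% in WT over 214 cytosines, and 9130213A22Rik, in an exon of the somite clock gene Hes7, at 0.02% in KI and 0.20% in WT over 98. The cytosines of these promoters spread over much of the window, so that strand averaging counts a read less than once. In the tests on summed reads 1 read counts at every CpG it spans, and on strand-averaged reads the unadjusted p by Fisher's exact test was 0.69 for Gm17242 and 1 for 9130213A22Rik.

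Gains were fewer. 4921514A10Rik had only 3 cytosines, at 90.0% in KI and 73.6% in WT, a change of 16.4 points (interval 9.06 to 23.8). Of these, 3 of 3 were higher, with 66 to 67 reads each in KI and 58 in WT, but the gain was uneven. At 493 bp after the 5' end, 86.6% of 67 reads were methylated in KI and 48.3% of 58 reads in WT. The other cytosines were at 87.9% and 95.5% in KI and at 82.8% and 89.7% in WT. A330094K24Rik on chromosome 18 was at 40.3% in KI and 28.1% in WT, a change of 12.1 points (interval 5.88 to 18.4), with 8 of 12 cytosines higher, 2 lower and 2 equal. With 500 bp on each side it rested on 4 cytosines and changed by 31.1 points. At 108 bp before its 5' end, 45% of 40 reads were methylated in KI (Wilson interval 30.7 to 60.2) and none of 41 reads in WT, where the upper Wilson limit was 8.57%. This promoter also held the only 4 positions, of 20970 listed in the windows, with at least 20 reads in KI and none in WT, and no position was read the other way round. Whether the missing reads bear on its levels was not tested.

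The other 8 higher promoters, named after their values were seen, changed by less. Dio3os, antisense to the thyroid hormone deiodinase gene Dio3 in the imprinted cluster that also holds Meg3, was at 43.5% in KI and 38.0% in WT, with 14 of 18 cytosines higher. 2610020F03Rik, in an intron of the kinase gene Map3k13, was at 64.8% in KI and 58.8% in WT. Gm16600, in an intron of Sorbs3, was at 5.10% in KI and 1.59% in WT, and 16 of its 25 cytosines were higher and 1 lower. 4930511A02Rik was at 24.5% in KI and 20.7% in WT, Gm17712 at 14.8% in KI and 11.8% in WT, Gm16170 at 5.57% in KI and 4.18% in WT, A930011O12Rik at 4.38% in KI and 1.29% in WT, and A930006K02Rik at 0.65% in KI and 0.21% in WT.

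Genes with a described role were mostly unmethylated in both libraries. Of 75 names listed, 25 are lincRNA genes in this annotation and 17 had a measured promoter, of which 14 were under 10% in WT, 1 (Nespas) was lower in KI and none was higher by the 2 tests, against 7.23% lower and 1.11% higher of all promoters. At an unadjusted p under 0.05 by Fisher's exact test on strand-averaged reads no listed promoter passed. The median change of the 17 was -0.24 points. Meg3, the maternally expressed RNA of the Dlk1 cluster, and Airn, the paternally expressed antisense of Igf2r, have promoters methylated on 1 allele. Meg3 was at 62.9% in KI and 63.2% in WT over 53 cytosines, a change of -0.24 points (interval -3.07 to 2.59), but the change was -4.23 points with a counting error of 1.35 over the 48 cytosines with at least 10 reads in both libraries and 2.18 points with strands summed. Airn was at 66.1% in KI and 66.6% in WT over 28 cytosines, a change of -0.51 points (interval -3.30 to 2.29).

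Host genes of small RNAs were mostly near 0. Dleu2, host of the mir-15a and mir-16-1 pair, was at 0.06% in KI and 0.26% in WT, 1700016P03Rik, which holds mir-212 and mir-132, at 0.37% in KI and 0.41% in WT, and C130071C03Rik, which holds mir-9-2, at 2.34% in KI and 2.64% in WT. A330023F24Rik, host of members of the mir-29 family, was at 0.00% in KI and 0.15% in WT. Of the small nucleolar RNA hosts, Snhg5 was at 0.00% in KI and 0.19% in WT, Snhg7 at 0.06% in KI and 0.00% in WT, and Snhg12 at 8.21% in KI and 8.62% in WT, where a few cytosines reached 90.9% in KI and 100% in WT beside a median of 0.00% in both.

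Other known lincRNAs were at similarly low levels. Tug1 was at 0.00% in KI, where 0 of 484 summed reads allow up to 0.62%, and at 0.42% in WT. Its 8 cytosines lie 319 to 341 bp after the 5' end. Gt(ROSA)26Sor, the locus used for transgenes because it is active in most tissues, had no methylated read in either library, which allows up to 1.51% in KI and 1.18% in WT over 5 cytosines. These lie 970 to 1000 bp after the 5' end, at the edge of the window, so the sequence nearer the 5' end was not measured. Pvt1, downstream of Myc, was at 0.75% in KI and 0.41% in WT, Miat at 2.52% in KI and 2.77% in WT (a change of -0.25 points, or of -2.59 points over the 11 cytosines with at least 20 reads in both libraries), Six3os1, antisense to the forebrain gene Six3, at 1.58% in KI and 2.28% in WT, and Dlx1as, antisense to the homeobox gene Dlx1, at 5.75% in KI and 4.81% in WT. None of these differences passed a test. The 14 cytosines of Dlx1as lie at -879 to -519 bp from the 5' end. Among the 4 promoters with the most reads, Ppp1r3e, which RefSeq has as a protein-coding gene, was at 0.02% in KI and 0.23% in WT, Gm17494 at 1.68% in KI and 1.89% in WT, and Gm16206, called lower, at 67.4% in KI and 69.8% in WT. The change of Gm16206 was -2.40 points with a counting error of 1.78, and -0.52 points with strands summed.

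**Figure D5:**
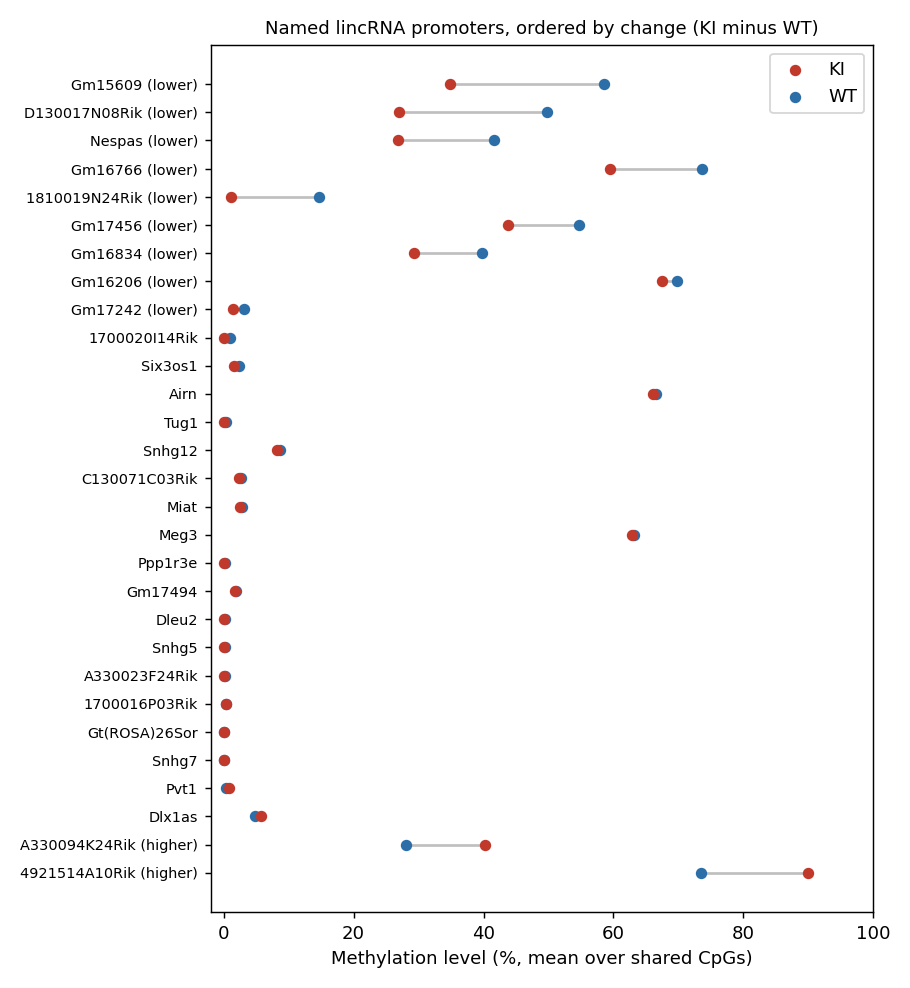
Methylation level (horizontal axis, %) of the promoters named by a fixed rule, in KI (red) and WT (blue), ordered by the change from loss at the top to gain at the bottom, with calls in brackets after the name. Gm15609 and D130017N08Rik show the widest gaps at the top, and most of the genes with a described role have both points close to 0.

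Calls at single CpGs were rare. By Fisher's exact test with adjustment over all shared CpGs and a difference over 25 points, 16 cytosines of lincRNA promoters were lower and 9 higher of 10721, against 1.09% and 0.0474% of all shared CpGs. Of the 10721, 7970 were under 10% by the mean of both libraries, and 0 of these were called. Protein-coding promoters had 540 lower and 124 higher of 629274 CpGs. At 50 to under 70%, 2.22% of lincRNA promoter cytosines were lower and 1.27% higher, against 7.32% and 0.234% of all autosomal ones. These differences were not tested. The lower cytosines of lincRNA promoters lay in Gm16766 with 5, in A230004M16Rik with 4, and singly in others. At A230004M16Rik, 65 bp after the 5' end on the minus strand, 48.9% of 135 reads were methylated in KI (Wilson interval 40.6 to 57.2) and 84.0% of 150 reads in WT (Wilson interval 77.3 to 89.0). A single cytosine of Meg3, 255 bp after the 5' end, had 20.5% of 39 reads methylated in KI (Wilson interval 10.8 to 35.5) and 65.5% of 29 reads in WT (Wilson interval 47.3 to 80.1), while 28 of the 53 cytosines of Meg3 were higher in KI and 25 lower. The higher cytosines included 3 of A330094K24Rik and 1 each in 4921514A10Rik, 4930511A02Rik, Gm12404, Gm17276, 5730457N03Rik and 4833428L15Rik, the last of which also held a lower one. Of the 1399 cytosines over 70% in WT, 1 was under 20% in KI, and 1 changed the opposite way, both with fewer than 20 reads in a library.

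The loss was larger at repeated sequence. The 153 CpGs whose surrounding words of 16 bases have at least 100 copies in the genome were at 71.0% in KI and 77.3% in WT, a change of -6.28 points (interval -8.19 to -4.38), and the 10353 with fewer than 5 copies at 14.9% in KI and 15.4% in WT, a change of -0.57 points (interval -0.72 to -0.41). A large part of the 153 comes from 1 promoter, A230004M16Rik, which has 52 measured cytosines, most of them with at least 100 copies. At protein-coding promoters the same classes changed by -3.28 points (interval -3.69 to -2.86) and by -0.28 points. In 7 members at least 50% of the CpGs were repeated, and all 7 were lower in KI by some amount, with a median of -4.60 points, though only A230004M16Rik was called. Their level was high as well, with medians of 70.4% in KI and 73.9% in WT, and its part in the larger loss was not tested. By chromosome, the mean change over promoters was negative on 16 of 19 autosomes and positive on chromosomes 4, 14 and 18. Chromosome 17, where DNA of the 129 strain can remain around the targeted Uhrf1, held 26 members, of which 1 was lower and none higher, against 28 lower and 10 higher of the other 363.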

How the data were processed

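Liver DNA of 3 KI and 3 WT males was pooled by genotype and sequenced by RRBS as 1 library each. The authors mapped reads to mm9 with Bismark (0.12.20 in the submitters' notes) and kept unique hits. Deposited for each cytosine are its coverage, a count of reads, and its level, a percent of them. Trimming and the treatment of duplicates are not given in the sources used here.

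Methylated reads were recovered as coverage times percent, and every product lay within 0.005 points of a whole read. Each of the 9172045 listed positions matched a CpG of the genome. Genes came from GENCODE for mm9. High-CpG promoters hold a window of 500 bp with at least 55% GC and an observed over expected CpG ratio above 0.75, and low-CpG promoters none above 0.48. RefSeq (GRCm38.p6) was used for gene classes only.

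Named promoters are the up to 10 largest losses and gains with at least 10 points and 80% of changed CpGs in 1 direction, the 4 with the most reads and the listed genes. Members and lists were chosen with earlier results of these data known. Tests were run on simulated data in which each CpG was drawn on its own. That check does not cover reads that span several CpGs or PCR copies. Alternatives changed the depth, window, weights, test, CCGG sites, chromosome 17 and membership. Tools were samtools 1.23.1, Python 3.11.15, scipy 1.17.1, pandas 2.3.3, numpy 2.4.6, pysam 0.24.0, numba 0.67.0 and matplotlib 3.10.9.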

Additional observations from a re-analysis of the deposited data

How the results depend on the processing

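No alternative turned the direction of a called promoter named by the rule or of the mean change. Of the promoters, 18 were lower and 4 higher with 500 bp on each side, 46 were lower by Fisher's exact test on summed reads alone, 7 were lower and 2 higher with at least 10 points, and 0 were lower and 0 higher with reads averaged over CpGs or over the CpGs of each strand. The other settings gave 24 to 39 lower promoters. Of the CpGs, 9 were lower with 5' ends over 2 kb from coding starts, 5 were higher with strands summed and 5 with 500 bp on each side. The mean change was -1.33 points with each promoter once and -0.57 to -0.72 points otherwise. Gm15609 and Gm17242 lost their call at 500 bp. The cause was not tested where the setting itself does not show it. Averaging over strands, the starts of every coding transcript, RefSeq classes, copies and classes by the mean of both libraries were chosen after seeing the data. No paired analysis was possible because each genotype is 1 library, and leaving out a library leaves no comparison. Of the promoters, 12 lower and 6 higher changed by at least 10 points without a call.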

Other observations

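Outside the autosomes, 10 lincRNA promoters of the X chromosome were measured, and males carry 1 copy of it. Gm14636 was at 63.3% in KI and 71.6% in WT over 10 cytosines, a change of -8.26 points with a counting error of 2.25. Its cytosines went both ways, with 5 lower and 4 higher. Gm17463 was at 76.9% in KI and 81.4% in WT over 16, a change of -4.49 points with a counting error of 1.73, with 9 lower and 7 higher. B230206F22Rik was at 15.5% in KI and 22.9% in WT over 12 cytosines with 136 summed reads in KI and 147 in WT, and C330013F16Rik at 70% in KI and 73.5% in WT with 30 summed reads in KI and 42 in WT. The remaining 6 were at 0.00% to 1.68% in KI and 0.00% to 3.04% in WT.

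Among autosomal promoters without a call, the widest changes rested on few reads. Gm17346 was at 73.1% in KI and 94.4% in WT with 30 summed reads in KI and 36 in WT, and Gm16724 at 76.0% in KI and 96.0% in WT with 25 in each. On the other side, Gm16954 was at 74.2% in KI and 58.3% in WT with 46 summed reads in KI and 36 in WT.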
